A study of Rattus norvegicus with 65 samples.

Results

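The circadian clock of the rat liver was followed through 10 genes: Bmal1, Npas2, Clock, Cry1, Dbp, Nr1d1, Nr1d2, Per3, Tef and Usp2. They were chosen by name, and every probe set annotated to only one of these symbols was taken. That gave 19 of the 31042 probe sets that are not array controls, and 10 of 14217 genes. A gene with several probe sets was read from the one with the highest mean over the 65 arrays, and all 10 genes passed the filter on low signals. The genes were taken by name, with no threshold on a measured value.

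The molecular clock is a feedback loop. Bmal1 pairs with Clock or Npas2 to switch on genes that carry E-boxes, and the Per and Cry proteins made from some of these genes repress that pair. Nr1d1 and Nr1d2 encode the nuclear receptors REV-ERB alpha and beta, which are switched on by the same pair and repress Bmal1 and Npas2. Dbp and Tef encode transcription factors that pass the rhythm on to liver metabolism through D-boxes, and Usp2 encodes a rhythmic deubiquitinase. In liver, transcripts of Bmal1 and Npas2 on the one side and of Dbp, Nr1d1, Per3, Tef and Usp2 on the other are known to peak at nearly opposite times of day, with Cry1 late among the repressors.

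Liver RNA of 65 male Sprague-Dawley rats, 6 weeks old and kept on a 12/12 h light/dark schedule, was measured on Affymetrix arrays, 1 rat per array, to tell genotoxic from nongenotoxic liver carcinogens. The genotoxic (GTX) set held 20 rats: 3 controls and rats given 2-AAF, 3MeDAB or DEN. The nongenotoxic (NGTX) set held 21 rats: 3 controls and rats given 1,4-Dioxane, Clofibrate or DL-Ethionine. The test set held 24 rats given DCP, ME, SN or Urethane, with no control group. Every compound was given as a short and a long schedule, with 3 rats each except DEN short with 2. The labels put short at 3 h and long at 72 h, while the treatment protocol gives autopsy after 24 h, with 3 administrations in the repeated groups. In the test set the labels give 1 dose (short) or 3 doses (long) of 50 for DCP and SN, of 300 for ME and of 500 for Urethane, without a unit, and no doses for the other sets. Control rats carry no time label, and the labels give no hour of the day at which any rat was killed. In these arrays an effect of treatment or schedule therefore cannot be told apart from one of the hour of autopsy.

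Values are log2 signals, so a difference of 1 is a change of 2-fold. The lowest values per array were 3.33 to 3.41 in the GTX, 3.23 to 3.30 in the NGTX and 2.28 to 2.40 in the test set, so the sets appeared to have been normalized apart and were never tested against each other by level. Differences were tested with limma, which fits all genes and adjusts p over all of them (Benjamini-Hochberg). A gene was called at an adjusted p under 0.05. Over the 65 livers, 7 of 8 listed hepatocyte markers were on the array and all 7 stood above the table's median in every rat, and no level of theirs is compared between the sets. These are whole livers, in which fewer cells of a type and less RNA per cell cannot be told apart.

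Sequences upstream of the RefSeq gene starts (GRCr8) show where this loop could be read from DNA. Exact matches were searched on both strands of the 250 bases before each start for the E-box CACGTG, the D-box TTATGNAA (N is any base) and the element TAGGTCA bound by ROR and REV-ERB receptors. No 2 of these motifs overlapped in the windows shown. Of the 10 genes, 9 had a window in the table (11 windows in all), and 3 windows held a match. The 3 stretches with a match follow in the direction of the gene, with the motif in capitals. The Bmal1 stretch (chr1:176766252-176766327, plus strand) holds the receptor element 16 bases before the start, Nr1d1 (chr10:84229586-84229704, minus strand, at the second of its listed starts) an E-box at 191 bases and Tef (chr7:115206577-115206688, plus strand) an E-box at 198 bases.
Bmal1: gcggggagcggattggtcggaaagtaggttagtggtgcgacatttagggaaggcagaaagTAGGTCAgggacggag
Nr1d1: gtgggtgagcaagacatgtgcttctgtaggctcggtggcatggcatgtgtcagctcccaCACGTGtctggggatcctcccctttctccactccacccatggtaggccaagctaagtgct
Tef: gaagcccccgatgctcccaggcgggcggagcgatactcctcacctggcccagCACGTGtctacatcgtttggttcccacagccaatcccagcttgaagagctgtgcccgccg
Among all 33469 windows of this length, 5.59% held the E-box, 3.28% the D-box and 2.26% the receptor element. A match is a run of letters in this window only. Across 65 rats, deviations of Bmal1 from its group means had an r of -0.667 with those of Nr1d1 (described further on). With those of Tef, r was -0.758. Dbp (-0.907), Per3 (-0.759), Nr1d2 (-0.743) and Usp2 (-0.74), whose windows held no match, were opposed to Bmal1 as well. Npas2 and Clock, also without a match, had a positive r. Genes with and without an E-box match in this window were opposed to Bmal1. E-boxes outside these 250 bases were not searched, and the part of E-boxes in these r was not tested.

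The control rats differed from each other in these genes. In the GTX set, Dbp read 10.24, 6.19 and 5.99 in control rats 1, 2 and 3. In the NGTX set it read 9.93, 6.91 and 7.23. In both sets the first control rat was far above the other 2, by a range of 4.25 (19.0-fold) and of 3.02 (8.13-fold). Bmal1 ran the other way, at 5.91, 8.02 and 8.02 in the GTX controls and at 5.20, 7.97 and 8.07 in the NGTX controls. Usp2 followed Dbp, at 8.58, 5.48 and 5.88 and at 8.86, 5.71 and 6.00. So control rat 1 of either set had low Bmal1 with high Dbp and Usp2, and rats 2 and 3 had the reverse.

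The other genes split the same control rats. Npas2 read 7.34, 9.17 and 9.03 in the GTX and 7.91, 8.70 and 8.60 in the NGTX controls. Clock and Cry1 were lowest in rat 1 of both sets, Clock by 0.75 and 0.77 below the highest rat and Cry1 by 1.33 and 0.92. Nr1d1 was 9.13, 7.48 and 7.43 in the GTX controls but 9.12, 8.84 and 8.81 in the NGTX controls, so REV-ERB alpha stood apart clearly in only the first of these groups. Nr1d2, Per3 and Tef were highest in rat 1 of both sets, with ranges of 1.02 to 1.17 in the GTX and 0.53 to 0.83 in the NGTX controls. Of the 10 genes, all 10 in the GTX controls and 7 in the NGTX controls had an SD above the 95th percentile of the 11013 genes tested. The median SD of the 10 genes was 0.86 and 0.45, against 0.10 and 0.11 for all genes.

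Some genes of the other lists also set the first control rat apart, and some did not. The 5 given first were picked after their values were seen, so that they share this pattern is fixed by the choice. Cyp7a1, the rate-limiting enzyme of bile acid synthesis, read 12.62, 7.96 and 8.32 in the GTX and 12.54, 7.91 and 7.53 in the NGTX controls, ranges of 25.2-fold and 32.1-fold. Noct, which encodes Nocturnin, read 7.62, 5.66 and 6.24 and then 7.48, 5.84 and 5.24. Rora, an activator of Bmal1, was 5.24, 7.19 and 7.17 and then 5.82, 7.27 and 6.97. Nfil3, a repressor at D-boxes, was 8.36, 9.97 and 10.03 and then 8.63, 9.31 and 9.28. Pdk4, a fasting-responsive kinase, was 10.23, 11.58 and 11.55 and then 10.13, 11.70 and 11.77. Further list genes also set rat 1 apart in both sets, among them Hlf, Gys2 and Thrsp, which were highest in rat 1. Thrsp, a lipogenic gene, read 12.42, 11.61 and 11.55 in the GTX and 12.58, 11.94 and 11.96 in the NGTX controls. Hlf, Gys2 and Thrsp too were picked after their values were seen. Lpin1, Alas1 and Wee1 did not split this way in both sets. Lpin1, a phosphatidate phosphatase, read 9.88, 9.86 and 9.93 in the GTX and 9.80, 9.89 and 10.29 in the NGTX controls. Alas1, the first enzyme of heme synthesis, read 11.36, 11.09 and 11.40 and then 11.46, 11.15 and 11.14, with rat 1 highest in the NGTX set. The cell cycle kinase gene Wee1 read 6.41, 6.18 and 6.14 and then 6.29, 6.49 and 6.20, with rat 1 highest in the GTX set. Hepatocyte markers differed little between the control rats, with means of 13.7 to 13.8 in the GTX and 13.9 in all 3 NGTX controls. The difference between 3' and 5' Gapdh probe sets, a sign of RNA integrity, ran from 0.44 to 0.63 in the GTX and from 0.50 to 0.91 in the NGTX controls, highest in NGTX rat 1, and its part in the result was not tested.

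**Figure D1:**
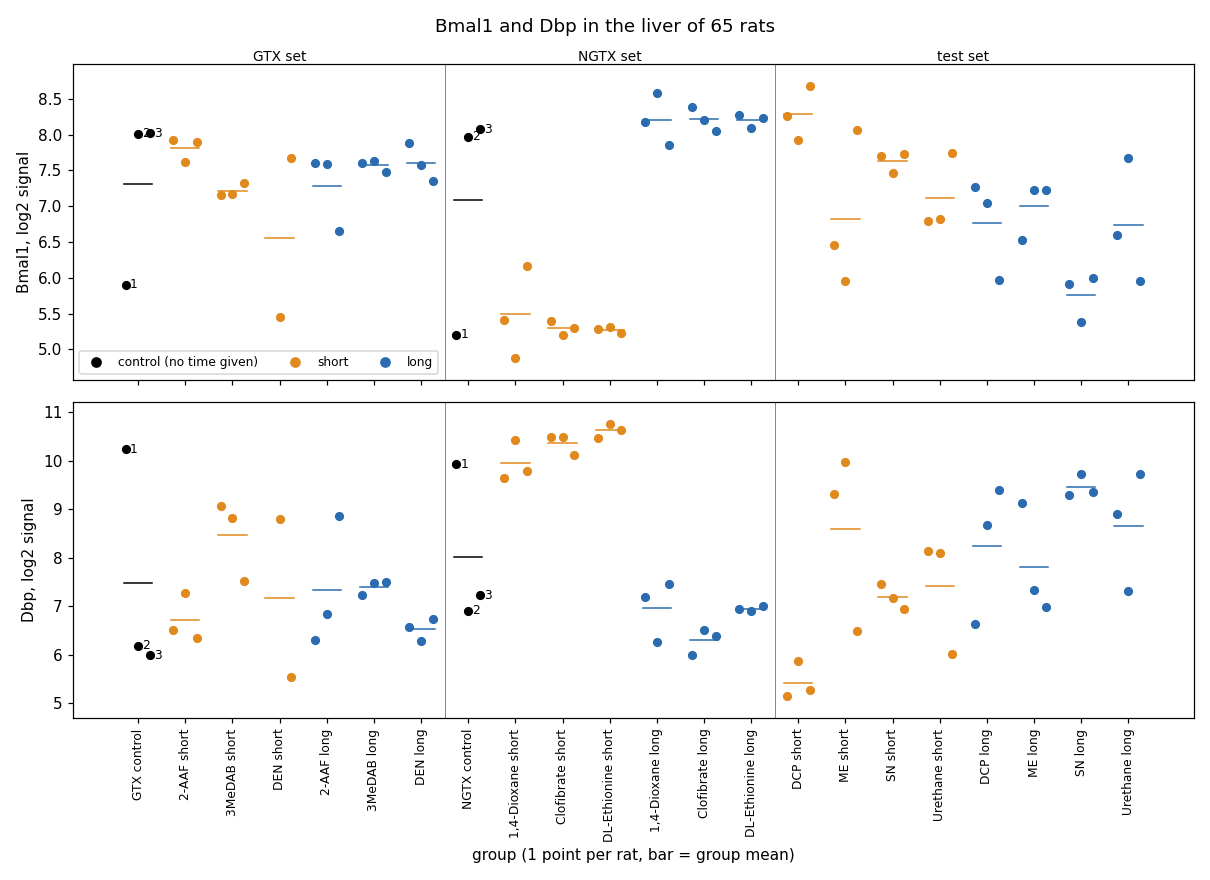
Log2 signal of Bmal1 (top) and Dbp (bottom) in each of 65 rats (points) with the group mean (bar), by group, for the GTX, NGTX and test sets. Numbers mark the control rats: rat 1 of both control groups has low Bmal1 (5.91 and 5.20) and high Dbp (10.24 and 9.93).

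Rats given the same compound on the same schedule also differed. The 2 DEN short rats read 8.80 and 5.55 for Dbp and 5.45 and 7.68 for Bmal1. The 3 ME short rats read 9.31, 9.98 and 6.49 for Dbp and 6.46, 5.96 and 8.06 for Bmal1, so the third was the reverse of the others. DCP long ran from 6.64 over 8.68 to 9.40 for Dbp, and Urethane long read 8.90, 7.32 and 9.72. The median SD of the 10 genes was 0.65 in DEN short, 0.80 in ME short, 0.63 in DCP long and 0.53 in Urethane long, where the median of all genes was 0.09 to 0.14. In other groups this median was close to that of all genes: in SN long it was 0.12 against 0.10, and in 3MeDAB short 0.17 against 0.17. Dbp still ran from 7.52 over 8.82 to 9.07 in 3MeDAB short, with an SD of 0.83. In the NGTX set the median SD of the treated groups ranged from 0.15 in DL-Ethionine long to 0.32 in 1,4-Dioxane long.

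**Figure D2:**
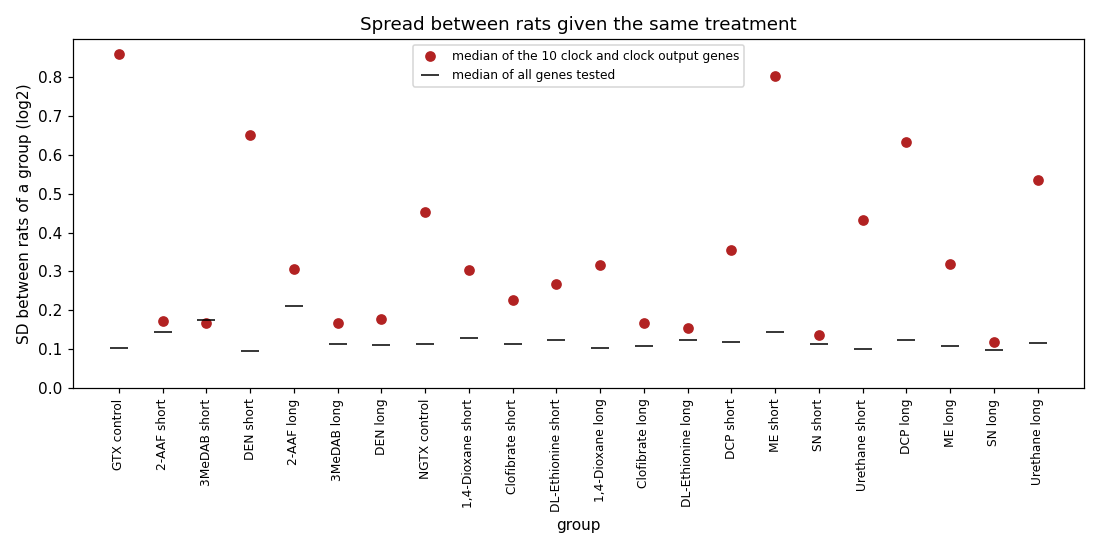
SD between rats (log2) in each of the 22 groups: median of the 10 clock and clock output genes (points) and of all genes tested in that set (dashes). The GTX control group has the highest value of the clock genes, 0.86, and SN long the lowest, 0.12, while all genes stay between 0.09 and 0.21.

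Pooled over the groups of a set, Dbp was among the most variable transcripts of the liver. Its within-group SD of 1.31 ranked 6th of 11013 genes in the GTX set, 0.70 ranked 64th in the NGTX set and 1.12 ranked 18th of 10220 in the test set. Usp2 ranked 55th, 26th and 40th, and Bmal1 68th, 69th and 113th. Clock, the partner of Bmal1, was the steadiest in 2 of the sets, with SDs of 0.21 (rank 3591) and 0.23 (rank 1805) in the GTX and test sets. In the NGTX set Tef was steadier still, with an SD of 0.22 (rank 2182). In each set Clock thus ranked far below Dbp, Usp2 and Bmal1.

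Within groups, the 10 genes moved as 2 opposed sides. Deviations from the group mean over the 65 rats gave a Pearson r of -0.907 and a Spearman rho of -0.86 between Bmal1 and Dbp, further from 0 than the r of Bmal1 with any of the 10040 other genes compared. It was -0.949 in the GTX, -0.93 in the NGTX and -0.92 in the test set. Without the 2 rats farthest from the median, which were the first control rats of both sets, r was -0.894, and without all 6 control rats -0.889. These r are descriptions over rats, with no p. The 6 pairs among Bmal1, Npas2, Clock and Cry1 had a median r of 0.59, the 15 pairs among the other 6 genes a median of 0.76, and the 24 pairs across a median of -0.67, with all 24 below 0. In the NGTX set 2 of those 24 were above 0. Cry1 was the loosest of the Bmal1 side: its r with Bmal1 of 0.571 fell to 0.398 without the control rats. The 10 genes were chosen with earlier results of these data known, and other core clock genes varied in their r with Bmal1. Rora was at 0.720, Nfil3 at 0.653, Hlf at -0.525 and Cry2 at -0.529. Per1 was at -0.426, Per2 at -0.275, Timeless at 0.103 and Bhlhe40 at -0.094.

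The genes outside the list whose deviations were most like Bmal1 were Lgalsl (r 0.894), Rprm (0.884), Tubb2a (0.787), Tmcc3 (0.755) and Chka, a choline kinase (0.753). Those most opposed were Ifrd2 (-0.774), Klf15, a regulator of amino acid and glucose metabolism (-0.720), Tns2 (-0.712), Hsd17b2 (-0.693) and Erlin1 (-0.687). These values are over 65 rats. Lgalsl and Rprm stayed at 0.863 or above in each set taken alone.

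**Figure D3:**
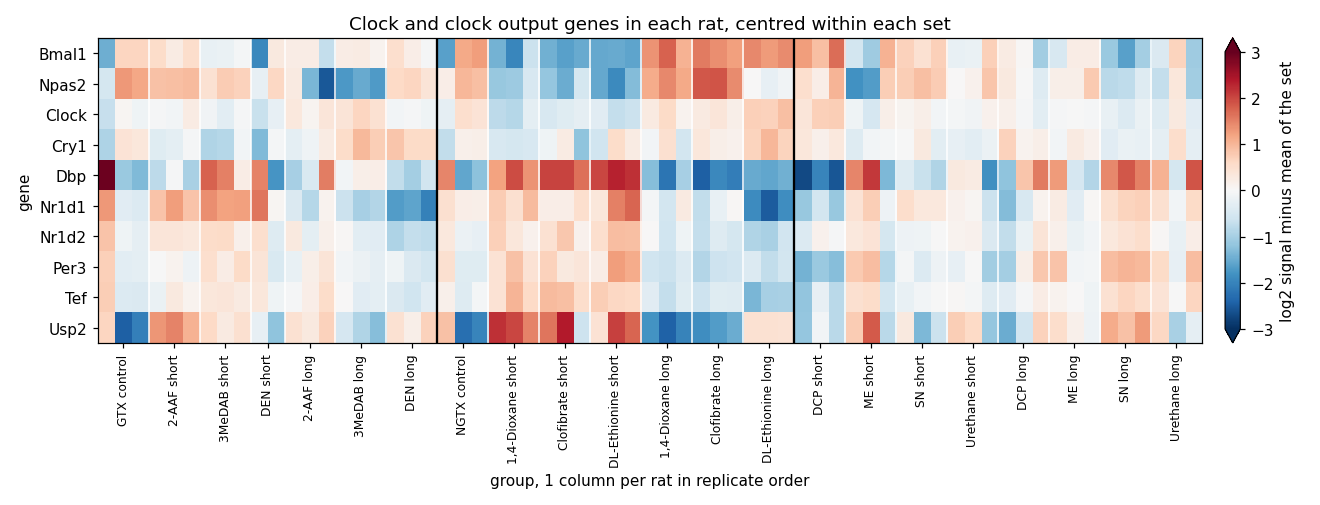
Log2 signal of the 10 genes (rows) in each of 65 rats (columns, grouped), minus the mean of the gene over its set; red is above and blue below that mean, with the colour scale ending at 3 on either side. In the NGTX short columns Bmal1, at 4.88 to 6.17, is blue and Dbp, at 9.65 to 10.77, is red, and in 3MeDAB long Npas2, at 6.15 to 6.37, is blue without Bmal1.

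The clearest group difference lay between the short and long schedules of the NGTX set, where Bmal1 and Dbp changed places. In the 9 short rats Bmal1 ran from 4.88 over a median of 5.30 to 6.17, and in the 9 long rats from 7.86 over 8.21 to 8.59. Dbp ran from 9.65 over 10.47 to 10.77 in the short rats and from 6.00 over 6.91 to 7.46 in the long rats. No short rat overlapped a long rat in either gene. In Bmal1 and Dbp, control rat 1, at 5.20 and 9.93, lay inside the range of the short rats, and control rats 2 and 3 inside that of the long rats. Npas2 and Tef of control rat 1, at 7.91 and 8.72, lay outside the short ranges of 5.79 to 7.22 and 9.01 to 9.58. Per3 of control rats 2 and 3, at 6.23 and 6.24, and Tef of rat 3, at 8.52, lay above the long maxima of 6.19 and 8.24. The remaining genes lay inside these ranges.

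Long minus short, Bmal1 rose by 2.72 ± 0.53 (SE; 6.58-fold) with 1,4-Dioxane, by 2.92 ± 0.53 with Clofibrate and by 2.93 ± 0.53 with DL-Ethionine (adjusted p 0.00181, 0.00126 and 2.23e-05; 3 rats against 3 throughout). Npas2, the paralogue of Clock that also pairs with Bmal1, rose by 2.13, 2.78 and 1.48, and Clock by 0.97, 0.64 and 1.33. Cry1, the repressor, did not pass the test with any of the 3 compounds, with differences of 0.44, 0.58 and 0.71 ± 0.35. On the output side Dbp fell by 2.99 (7.92-fold) with 1,4-Dioxane, fell by 4.06 (16.7-fold) with Clofibrate and fell by 3.67 (12.8-fold) with DL-Ethionine, each ± 0.80. Tef fell by 1.15, 1.26 and 1.76, and Per3, a Period gene, by 1.13, 1.13 and 1.43. Nr1d2, the REV-ERB beta gene, fell by 1.01 with Clofibrate and by 1.59 with DL-Ethionine, and its -0.64 with 1,4-Dioxane did not pass. In all, 7 of the 10 genes were called with 1,4-Dioxane, against a background of 5.30% of all genes. With Clofibrate 8 were called (background 3.47%), and with DL-Ethionine 8 (background 51.6%). Leaving out any 1 rat left 6 to 7, 5 to 8 and 8 to 9 genes called, fewest without Clofibrate short rat 2. The calls of Bmal1, Npas2, Per3 and Tef stayed with all 3 compounds without any 1 rat, while that of Dbp with 1,4-Dioxane stayed in 2 of 6 such fits and that of Clock with Clofibrate in 1 of 6.

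Inside this common reversal Nr1d1 and Usp2 did not follow the same course with each compound. Nr1d1 read 6.75, 6.13 and 6.78 in DL-Ethionine long, below every rat of 1,4-Dioxane long (8.58, 8.09 and 8.92) and Clofibrate long (7.89, 8.41 and 8.67). It fell by 3.28 ± 0.36 (9.74-fold) from short to long with DL-Ethionine (adjusted p 6.13e-09), while the differences of -0.84 and -0.62 with the other compounds did not pass. Usp2 read 8.43, 8.44 and 8.40 in DL-Ethionine long but 5.56 to 6.48 in the other 6 long rats. It fell by 3.97 ± 0.65 (15.7-fold) with 1,4-Dioxane and fell by 2.79 with Clofibrate, and with DL-Ethionine its -0.97 did not pass (adjusted p 0.22). The test of whether the duration effect differs between the 3 compounds called these 2 of the 10 genes in the NGTX set, with adjusted p 9.66e-05 for Nr1d1 and 0.0271 for Usp2 (background 41.1%). Nr1d1 stayed called without any 1 rat of the set, Usp2 in 17 of 21 such fits, and the count was 1 without DL-Ethionine long rat 1. For Bmal1 and Dbp the same test gave adjusted p 0.968 and 0.732.

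**Figure D4:**
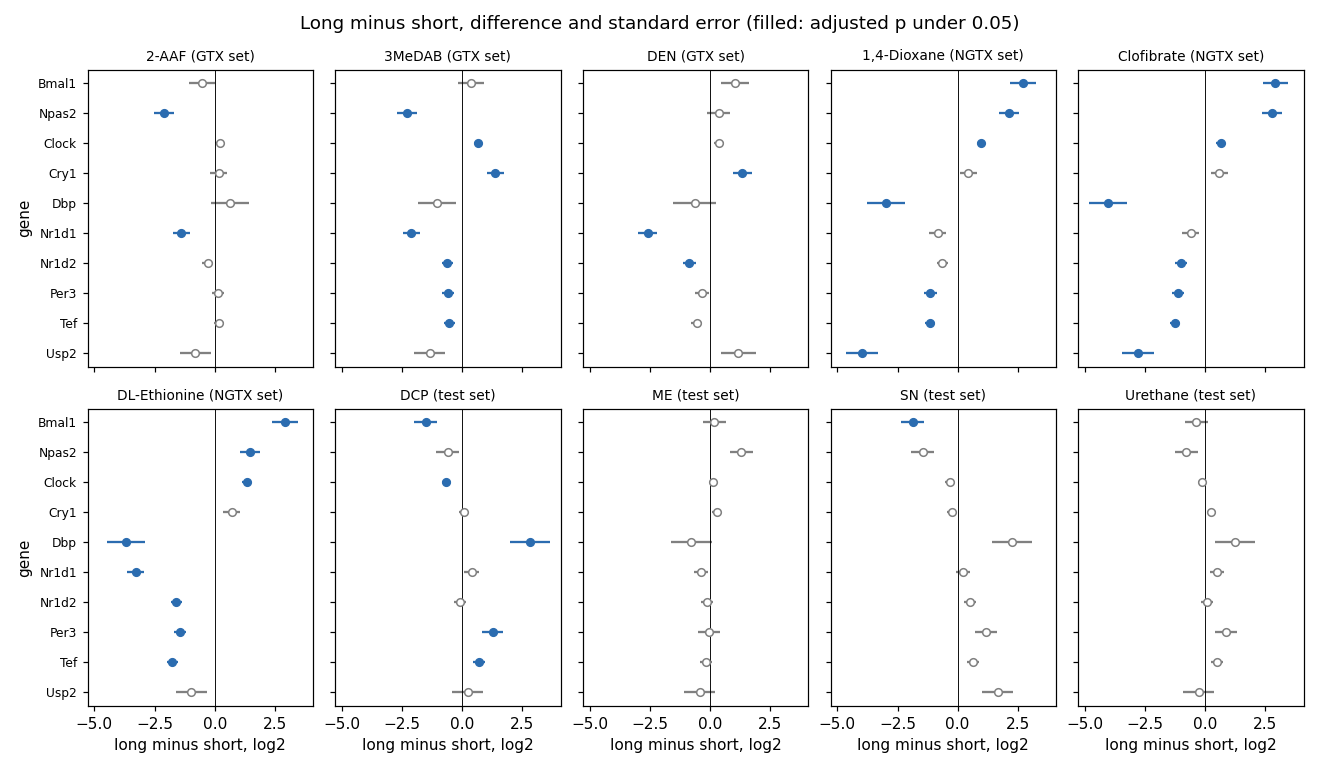
Difference long minus short (log2, point) with its standard error (bar) for the 10 genes and each of 10 compounds, from 3 rats a group (2 in DEN short); filled points have an adjusted p under 0.05. In the 3 NGTX compounds Bmal1 rises and Dbp falls, while with DCP and SN Bmal1 falls, by 1.53 and 1.87.

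Because the control rats differed, comparisons with control turned on which control rats were in them. Against the 3 NGTX controls, short 1,4-Dioxane had 4 of 10 genes called (background 5.50%), short Clofibrate 2 (2.90%) and short DL-Ethionine 7 (5.15%). Npas2 fell in all 3, by 1.60, 1.75 and 2.29 ± 0.42, and Tef rose in all 3, by 0.78, 0.89 and 0.75 ± 0.22. Dbp differed by 1.93, 2.34 and 2.60 ± 0.80 and was called in none, with an adjusted p of 0.0503 for DL-Ethionine. Without control rat 1 the counts were 7, 6 and 8, and Dbp was called in all 3, with 2.89, 3.29 and 3.56. Without control rat 2 they were 1, 0 and 1, and without control rat 3 also 1, 0 and 1. Treated rats mattered too: the 1,4-Dioxane count was 2 without 1,4-Dioxane short rat 2, the Clofibrate count 0 without Clofibrate short rat 1 or 2 and 3 without rat 3, and the DL-Ethionine count 1 without DL-Ethionine short rat 2 or 3. The long groups against the same controls gave 0 of 10 genes by limma for 1,4-Dioxane (background 0.163%) and 0 for Clofibrate (0.136%), with 1 and 5 genes at an unadjusted p under 0.05, and 6 for DL-Ethionine (53.1%). In that last comparison Nr1d1 fell by 2.37 ± 0.36 and stayed called without each control rat in turn, at 2.27 to 2.42 below control, while the count went down to 3 without control rat 1.

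In the GTX set Bmal1 and Dbp did not separate the schedules. Bmal1 ran from 5.45 over 7.47 to 7.92 in the 8 short rats and from 6.65 over 7.59 to 7.88 in the 9 long rats. Dbp ran from 5.55 over 7.40 to 9.07 and from 6.29 over 6.84 to 8.85, so both genes overlapped widely. Within 3MeDAB the schedules did not overlap: Bmal1 was 7.16 to 7.33 short and 7.48 to 7.63 long. Dbp there was 7.52 to 9.07 short and 7.22 to 7.51 long. With 2-AAF, Bmal1 was also without overlap, but lower in the long rats. In the main fit neither gene was called between the long and short schedule of any GTX compound. In a fit of only the 3MeDAB arrays both were called. Short against control, limma called 1 of 10 genes for 2-AAF (background 8.49%), 0 for 3MeDAB (0.917%) and 0 for DEN (17.5%), with 2, 2 and 0 at an unadjusted p under 0.05. The one called was Usp2, which read 9.27, 9.41 and 8.98 in 2-AAF short and rose by 2.57 ± 0.65 (adjusted p 0.0124). Without control rat 2 or control rat 3 no gene was called. Without control rat 1 the counts were 2, 2 and 1: Nr1d1 stood above the other 2 control rats with all 3 compounds, by 1.36, 1.65 and 1.20, and Usp2 by 3.54 with 2-AAF and 2.71 with 3MeDAB.

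In long groups of the GTX set single genes of the clock differed without Bmal1, as Nr1d1 and Usp2 did in DL-Ethionine long of the NGTX set. Npas2 read 8.14, 6.50 and 5.34 in 2-AAF long and 6.15, 6.37 and 6.17 in 3MeDAB long, below the 8.34 to 8.82 of the short rats of both compounds. Bmal1 in the same long rats was 7.60, 7.59 and 6.65 and then 7.61, 7.63 and 7.48, and its long minus short differences of -0.53 ± 0.53 and 0.35 ± 0.53 did not pass. DEN long kept Npas2 at 8.47, 8.52 and 8.27. Long minus short, Npas2 fell by 2.12 ± 0.42 with 2-AAF (adjusted p 0.000186) and by 2.29 ± 0.42 with 3MeDAB (2.53e-05), and with DEN its 0.36 ± 0.47 did not pass. The test of a difference between the 3 duration effects called Npas2 alone of the 10 genes (adjusted p 0.00114, background 56.1%), and also without any 1 rat of the set. Without DEN short rat 3 it called 5 genes, without control rat 1 it called 4, and without 2-AAF long rat 1, 2-AAF short rat 2, 3MeDAB long rat 1 or 3MeDAB short rat 3 it called 2.

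Nr1d1 fell from short to long with every GTX compound. It read 8.68, 9.07 and 8.68 in 2-AAF short and 7.38, 6.97 and 7.93 in 2-AAF long, 9.21, 9.04 and 9.05 in 3MeDAB short and 7.17, 6.82 and 6.94 in 3MeDAB long. In DEN it was 9.43 and 7.88 in the short rats and 6.14, 6.25 and 5.81 in the long rats. The groups did not overlap with any of the 3 compounds. The fall was 1.38, 2.12 and 2.59 (SE 0.36, 0.36 and 0.41; adjusted p 0.00338, 1.05e-05 and 1.3e-05). Nr1d2, its paralogue, fell by 0.63 with 3MeDAB and by 0.86 with DEN, and Cry1 rose by 1.37 and 1.35 with the same compounds. With DEN these values were -0.42 and 0.72, neither called, without DEN short rat 2, and -1.30 for Nr1d2 without DEN short rat 3. Of the 10 genes, 2 were called with 2-AAF (background 35.8%), 7 with 3MeDAB (59.2%) and 3 with DEN (30.2%), shares near those of all genes for 3MeDAB and DEN and below it for 2-AAF. Without 1 rat the count for 3MeDAB was 4 to 6, lowest without 3MeDAB long rat 2, 3MeDAB long rat 3 or 3MeDAB short rat 1, and that for DEN was 1 without DEN short rat 2. The falls of Nr1d1 stayed called in every such fit, and that of Nr1d2 with 3MeDAB in 2 of 6. Against control, the long groups had 3 called with 2-AAF (32.1%), 3 with 3MeDAB (53.6%) and 2 with DEN (16.7%). Npas2 fell by 1.85 with 2-AAF and by 2.29 with 3MeDAB, and Nr1d1 by 1.04 with 3MeDAB and by 1.95 with DEN. Without 2-AAF long rat 3 the Npas2 value was -1.19, still called, and without control rat 1 the Nr1d1 value with 3MeDAB was -0.48 and not called (adjusted p 0.261), nor was it without 3MeDAB long rat 2. Leaving out 1 rat of those groups or of the controls gave 1 to 3, 2 to 4 and 2 calls, the lowest for 2-AAF without 2-AAF long rat 1 or rat 3.

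**Figure D5:**
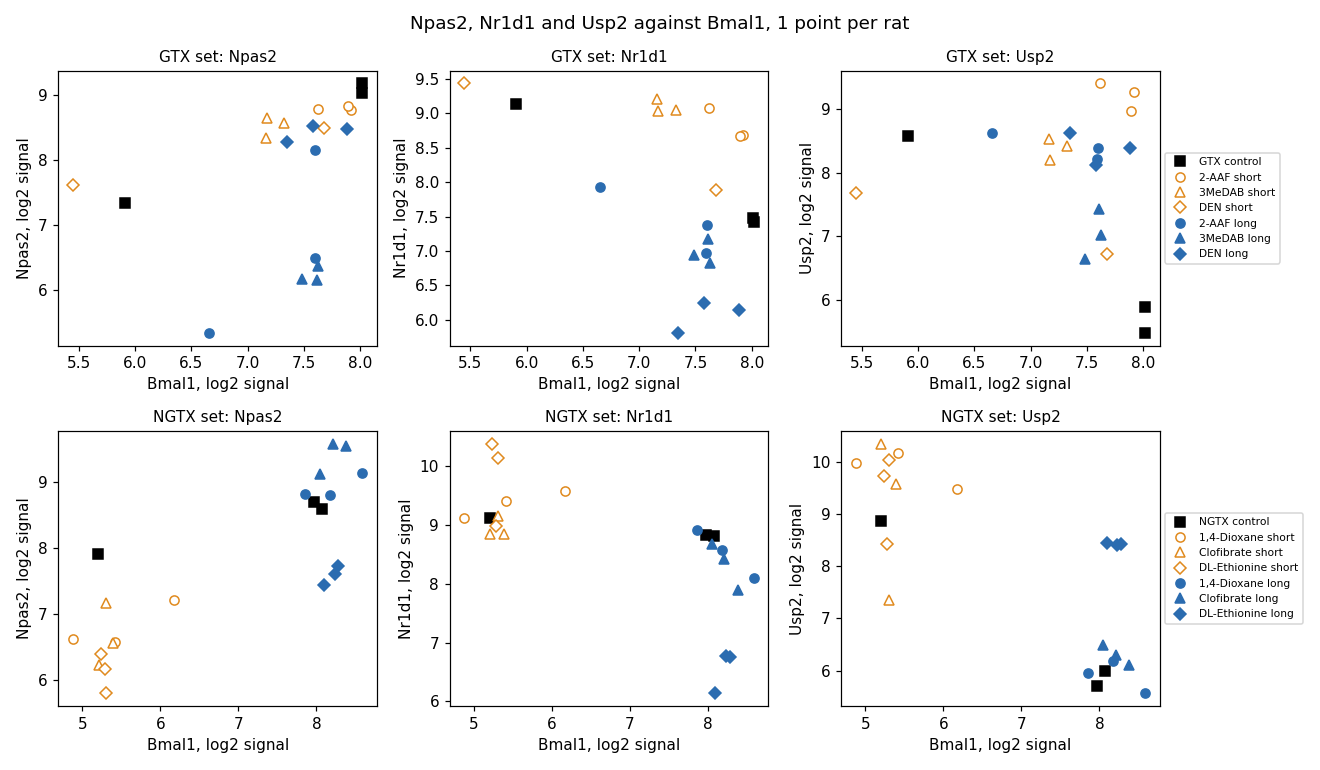
Log2 signal of Npas2, Nr1d1 and Usp2 (vertical axes) against that of Bmal1 (horizontal axes) in each rat of the GTX set (top) and NGTX set (bottom); squares are controls, open symbols short, filled blue symbols long. At a Bmal1 of 7.48 to 7.63 the 3MeDAB long rats have Npas2 of 6.15 to 6.37, and at 8.09 to 8.28 the DL-Ethionine long rats have Nr1d1 of 6.13 to 6.78 and Usp2 of 8.40 to 8.44.

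A comparison with no control rat in it, added after the data were seen, set each long group against the mean of the other 2 long groups of its set. DL-Ethionine had Npas2 lower by 1.59 ± 0.36, Nr1d1 lower by 1.87 ± 0.32, Tef lower by 0.65 and Usp2 higher by 2.32 ± 0.56 (5.01-fold), with 6 of 10 genes called (background 61.1%). DEN had Npas2 higher by 1.97 ± 0.36 and Nr1d1 lower by 1.14 ± 0.32, with 5 called (41.8%). 3MeDAB had Npas2 lower by 1.31 ± 0.36, with 3 called (51.2%), and 2-AAF had Nr1d1 higher by 0.91 ± 0.32, with 4 called (36.2%). 1,4-Dioxane had 2 called (31.2%), Nr1d1 1.09 higher and Usp2 1.46 lower, and Clofibrate 1 (31.4%), Npas2 1.16 higher. Bmal1, Dbp and Per3 passed in none of these 6 comparisons. The shares called were near or below those of all genes. Without 1 rat the counts ran from 1 to 4 for 2-AAF (1 without 2-AAF long rat 3, and 2 without 2-AAF long rat 2, 3MeDAB long rat 2, 3MeDAB long rat 3 or DEN long rat 1), 1 to 3 for 3MeDAB (fewest without 2-AAF long rat 2 and 3MeDAB long rats 2 and 3), 3 to 5 for DEN (fewest without DEN long rats 1 and 3), 0 to 1 for 1,4-Dioxane (0 without 1,4-Dioxane long rat 3 and 1 without any of the others, with Usp2 lost each time), 0 to 2 for Clofibrate (0 without Clofibrate long rat 2, 2 without 1,4-Dioxane long rat 3) and 4 to 7 for DL-Ethionine. The values of Npas2 for 3MeDAB, DEN and DL-Ethionine and those of Nr1d1 for DEN and DL-Ethionine stayed called without any 1 rat, as did Nr1d2 for DEN and Tef and Usp2 for DL-Ethionine.

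Macrophage markers moved with some of these groups. The 6 measured of 7 listed (among them Cd68, C1qa and Csf1r) all rose from short to long with 3MeDAB, DEN and DL-Ethionine. Their mean level per rat was 10.95 to 11.36 in 3MeDAB long against 10.00 to 10.40 in 3MeDAB short, 11.14 to 11.25 against 10.21 to 10.35 for DEN and 11.46 to 11.82 against 10.05 to 10.34 for DL-Ethionine. In 2-AAF long they were at 9.83 to 10.19. In 1,4-Dioxane long and Clofibrate long they were at 10.00 to 10.15 and 10.19 to 10.46. Hepatocyte markers were at 13.4 in 3MeDAB long and at 13.6 to 13.7 in DL-Ethionine long. Stellate and endothelial markers (among them Dcn and Pecam1) were at 9.29 to 9.44 in DEN long against 8.42 to 8.68 in DEN short. For DL-Ethionine they were at 9.20 to 9.35 against 8.57 to 8.58. The ranges overlapped for 3MeDAB (9.14 to 9.43 against 8.28 to 9.17), and Clofibrate long was lower than short (8.47 to 8.73 against 8.78 to 8.84). The part of these markers in the clock results was not tested.

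In the test set the schedules were ordered differently. DCP short had the highest Bmal1 (8.26, 7.92 and 8.69) and the lowest Dbp (5.15, 5.86 and 5.27) of the 8 groups, and neither gene overlapped with the next group by mean, SN short. For Bmal1 a rat of another group, ME short rat 3 at 8.06, lay inside the range of DCP short. SN long had the lowest Bmal1 (5.91, 5.38 and 6.00) and the highest mean Dbp (9.29, 9.72 and 9.36). The other neighbours in the order of Bmal1, from SN short at a mean of 7.63 over Urethane short, ME long, ME short, DCP long and Urethane long to SN long at 5.76, overlapped each with the next. For Dbp, all 3 DCP short rats lay below every other rat of the test set.

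Long minus short, Bmal1 fell by 1.53 ± 0.47 with DCP and by 1.87 ± 0.47 with SN (adjusted p 0.0149 and 0.0298), opposite to its course in the NGTX set. With DCP, Dbp rose by 2.81 ± 0.84 (7.03-fold), Per3 by 1.26 and Tef by 0.70, and Clock fell by 0.66, so 5 of 10 genes were called (background 40.0%). With SN, Bmal1 was the only one (background 4.85%), and the differences of Dbp (2.26 ± 0.84) and Usp2 (1.66 ± 0.64) did not pass, although 7 genes had an unadjusted p under 0.05. ME and Urethane had 0 called by limma (backgrounds 17.0% and 13.7%), with 1 and 0 at an unadjusted p under 0.05. The SN call was lost without any 1 of its 6 rats, and the DCP count was 1 to 6, falling to 1 without DCP long rat 3, 2 without DCP short rat 3, and 3 without DCP short rat 1 or DCP long rat 2. With ME it became 1 without ME short rat 3.

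Against the other 3 compounds on the short schedule, DCP had 7 of 10 genes called (background 42.0%). Bmal1 was higher by 1.10 ± 0.39, Clock by 0.63 and Cry1 by 0.41, and Dbp was lower by 2.31 ± 0.69, Nr1d1 by 1.13, Per3 by 1.15 and Tef by 0.72. Without DCP short rat 1 the count was 2, and without DCP short rat 3 it was 4. ME short had Npas2 lower by 1.49 ± 0.39 as its 1 call (background 9.25%). Its rats read 6.03, 6.16 and 8.58, and without the third the Npas2 value was -2.31 and 6 genes were called, while without either of the others none was. SN short and Urethane short had 0 called by limma (backgrounds 14.3% and 7.69%), with 1 and 0 genes at an unadjusted p under 0.05, and SN short had 1 called without ME short rat 3. On the long schedule DCP had Nr1d1 lower by 0.87 ± 0.24 as its 1 call (37.7%), 0 without DCP long rat 1, where Nr1d1 was at -0.49, and 2 without DCP long rat 2, DCP long rat 3 or Urethane long rat 2. ME, SN and Urethane long had 0 (2.97%, 5.20% and 13.8%), with 0, 6 and 0 at an unadjusted p under 0.05, and 1 for SN without DCP long rat 3.

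Npas2 was also the gene whose duration effect differed between the 4 test compounds (adjusted p 0.0212, 1 of 10 genes, background 29.6%). It read 6.03, 6.16 and 8.58 in ME short and 8.03, 8.03 and 8.63 in ME long, against 8.58, 8.74 and 8.62 in SN short and 7.04, 7.07 and 7.46 in SN long. So the difference ran upward with ME (1.31 ± 0.48) and downward with SN (-1.45 ± 0.48), and neither passed alone. Without ME short rat 3 that test called 6 genes, and without ME short rat 1 or 2 or ME long rat 3 none. It called 2 without DCP long rat 1, ME long rat 1, Urethane short rat 3 or Urethane long rats 2 or 3.

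The study's question, GTX against NGTX, was read from a contrast built here. This was the mean effect of the 3 GTX compounds against their control minus that of the 3 NGTX compounds against theirs. It called Npas2 on both schedules, in opposite directions. On the short schedule Npas2 was 1.82 ± 0.49 higher (adjusted p 0.0266) and Clock 0.82 ± 0.21 higher (0.0206), 2 of 10 genes (background 5.36%). On the long schedule Npas2 was 1.66 ± 0.48 lower (0.022), 1 of 10 (background 11.8%). Both rest on the control rats. Short, no gene was called without GTX control rat 1, NGTX control rat 2 or NGTX control rat 3, 4 were without NGTX control rat 1, 3 without DEN short rat 2 and 1 without DEN short rat 3. Long, none was called without GTX control rats 2 or 3 or NGTX control rat 1, and 3 were without GTX control rat 1.

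Whether any groups of a set differed was tested per gene. In the GTX set 7 of 10 genes passed (background 79.6%): all but Bmal1, Dbp and Per3, whose adjusted p were 0.515, 0.331 and 0.127. In the NGTX set all 10 passed (background 61.6%), Cry1 with an adjusted p of 0.0437 and in only 10 of 21 fits without 1 rat. In the test set 7 passed (background 71.2%), without Cry1, Nr1d2 and Usp2. The shares lay near those of all genes in the GTX and test sets and above it in the NGTX set, and in the GTX set without control rat 1 there were 9. In the order of group means in the GTX set, none of the 6 pairs of neighbours was without overlap for Bmal1 or Dbp. For Nr1d1 1 pair was apart, with DEN long (mean 6.07) below 3MeDAB long (6.98). In the NGTX set 1 pair was apart for Bmal1, between DL-Ethionine long and the control, and 3 for Npas2, so that its level fell in steps from 1,4-Dioxane long (8.93) over the control (8.40) and DL-Ethionine long (7.59) to the short groups.

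Probe sets of 1 gene mostly moved together. The second probe sets of Nr1d2, Usp2, Clock and Tef correlated over the rats' deviations with the ones used at r 0.942, 0.881, 0.772 and 0.762. From short to long with Clofibrate, the second probe set of Usp2 fell by 1.37 ± 0.36 where the one used fell by 2.79, and that of Tef differed by -0.41 ± 0.23, which did not pass, where the one used fell by 1.26. In the added comparison of Clofibrate long with the other 2, that second Tef probe set was 0.99 ± 0.20 higher, where the one used gave 0.33 ± 0.19 and did not pass. Dimmer probe sets of Per3 and Clock, with mean signals of 5.26 and 5.36, had r of 0.22 and -0.108 with the ones used, and another dim one of Clock 0.557. A further probe set of Nr1d2 and one of Tef were too dim to be tested.

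Other genes of the clock and its liver outputs were read from lists. Of 16 other core clock genes, 12 were tested. From short to long in the NGTX set, 1 fell and none rose with 1,4-Dioxane and with Clofibrate (all genes 5.30% and 3.47%). With DL-Ethionine 4 rose and 1 fell (all genes 51.6%). The gene that fell each time was Hlf, the third member of the Dbp and Tef family, by 0.87, 1.37 and 1.28 ± 0.22. Nfil3 rose with DL-Ethionine by 1.65 ± 0.38. In the GTX set 1 rose and 1 fell with 2-AAF (all genes 35.8%), and 2 rose and 1 fell with DEN (30.2%). With 3MeDAB 4 rose and 1 fell (59.2%): Hlf fell by 1.54, with Rora 1.21 and Nfil3 1.00 higher. With DCP 2 rose and 4 fell (all genes 40.0%): Hlf rose by 0.93 and Rora fell by 1.48. The counts for DL-Ethionine and the 3 GTX compounds are near or below the shares of all genes. The median difference of the list was -0.17, -0.20 and 0.17 in the 3 NGTX comparisons against 0.01, 0.01 and 0.04 for all genes.

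Of 15 listed clock outputs of liver, 13 were tested in the GTX and NGTX sets. From short to long, 4 fell and none rose with 1,4-Dioxane, 4 fell and 1 rose with Clofibrate and 5 fell and none rose with DL-Ethionine, where 5.30%, 3.47% and 51.6% of all genes were called, so the last count is below the background. Por, the electron donor of cytochrome P450 enzymes, fell by 1.84 and 1.42 ± 0.27 with the first 2 compounds, Gys2, liver glycogen synthase, by 1.10, 1.31 and 1.96 ± 0.22, and Noct by 3.20 ± 0.76 with Clofibrate. Nr1i3, the xenobiotic receptor CAR, fell by 3.31 ± 0.43 with DL-Ethionine. The median difference of the list was -1.10, -0.70 and -0.47. In the GTX set 4 fell with 2-AAF, 4 fell and 1 rose with 3MeDAB and 2 fell with DEN (all genes 35.8%, 59.2% and 30.2%), led by Lpin1 (-2.84 with 2-AAF), and Avpr1a, a vasopressin receptor (-2.84 with 3MeDAB). Of 14 tested in the test set, 3 rose and 2 fell with DCP, 1 rose and 3 fell with ME, 1 rose with SN and 2 fell with Urethane (all genes 40.0%, 17.0%, 4.85% and 13.7%).

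Cues that can set the liver clock were listed as well. Of 14 glucocorticoid and feeding genes, 11 were tested, and from short to long 3, 2 and 4 fell with 1,4-Dioxane, Clofibrate and DL-Ethionine, with 1 rising with the last (all genes 5.30%, 3.47% and 51.6%). Fkbp5, a glucocorticoid target, fell by 2.56 ± 0.36 with 1,4-Dioxane, and Thrsp, a lipogenic gene, by 5.32 ± 0.53 with DL-Ethionine. In the GTX set 7, 6 and 5 fell and none rose with 2-AAF, 3MeDAB and DEN, and with Urethane 5 fell and 1 rose. Of all genes 35.8%, 59.2%, 30.2% and 13.7% were called in these comparisons, so the count for 3MeDAB is near the background. Of 8 temperature and heat shock genes 4 were tested: the cold-inducible Cirbp fell by 0.91 with 2-AAF and by 0.50 with DEN, and also with DCP, SN and Urethane, by 0.48, 0.64 and 0.81. Rbm3, another cold-inducible gene, rose by 1.93 with 3MeDAB and by 1.34 with DL-Ethionine and fell by 0.63 with 2-AAF, 0.91 with ME, 1.01 with SN and 0.90 with Urethane. The heat shock gene Hspb1 rose by 1.98 with 2-AAF, 1.83 with 3MeDAB and 1.00 with Urethane and fell by 0.92 with DL-Ethionine, and Hsph1 rose by 0.77 with 1,4-Dioxane, 0.46 with 3MeDAB, 1.25 with DL-Ethionine and 0.79 with Urethane. The part of feeding, stress hormones or body temperature in the clock results was not tested.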

How the data were processed

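Each of the 65 Affymetrix arrays has 31099 log2 values, deposited after the authors ran RMA (a background correction, quantile normalization and summary of probes; stated in the design text and in the submitters' processing notes). Its version is not given in the sources used here, and no scanner files were used. Arrays carry no read depth, and the number of rats limits the precision. Genes were named from the platform annotation: 20826 probe sets had 1 symbol, 436 several and 9780 none, and 57 array controls were left out. A gene was tested if its brightest probe set exceeded the median of the table (6.03 for the GTX and NGTX sets, 5.64 for the test set) in at least 2 arrays, which left 11013 and 10220 genes.

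limma 3.58.1 in R 4.3.3 fitted 1 mean per group, in 1 fit of the 41 GTX and NGTX arrays (27 residual degrees of freedom) and 1 of the 24 test arrays (16), with eBayes. Tests were two-sided. The fit was tested on simulated data. Every member gene was described; of the lists, the called genes of largest size were named, and of all other genes the 5 most like and the 5 most opposed to Bmal1. The members and lists were chosen with earlier results of these data known. Alternatives covered the filter, the probe sets, eBayes, quantile normalization, the arrays in the fit, the replicate block and leaving out each rat. Whether replicate numbers pair rats was checked: in 1 of 12 comparisons with control did every same-numbered pair deviate together with r over 0.1 (range -0.219 to 0.183), so they were not taken as pairs. Promoter windows are RefSeq's for GRCr8, read with Python 3.11.15.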

Additional observations from a re-analysis of the deposited data

Results flagged for a closer look

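In 4 cases the difference between the short and long schedule was not the same for each compound of a set, by limma's test of the compound by duration interaction adjusted over all genes. The same test called 56.1%, 41.1% and 29.6% of all genes in the GTX, NGTX and test sets, more than the 1, 2 and 1 of these 10 genes. Npas2 in the GTX set (adjusted p 0.00114) fell with 2-AAF and 3MeDAB, by 2.12 and 2.29, while its 0.36 with DEN did not pass. Nr1d1 in the NGTX set (adjusted p 9.66e-05) fell by 3.28 with DL-Ethionine and differed by -0.84 and -0.62 with 1,4-Dioxane and Clofibrate. Usp2 in the NGTX set (adjusted p 0.0271) fell by 3.97 with 1,4-Dioxane and fell by 2.79 with Clofibrate and differed by -0.97 with DL-Ethionine. Npas2 in the test set (adjusted p 0.0212) differed by 1.31 with ME and by -1.45 with SN, neither of which passed alone.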

How the results depend on the processing

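No called difference changed direction under any alternative run, leaving out 1 rat included; differences that did not pass could, such as that of Npas2 with DEN from short to long (0.36, with -0.08 to 0.80 without 1 rat). Over the 60 tests of the 10 genes in the 6 short groups against control, 14 were called, but 3 with only the arrays of the groups compared in the fit; the 6 calls of 40 in the test set from short to long became 10 and the 3 of 20 between the classes became 1 under that setting. With the mean of all probe sets of a gene, 7 of 30 genes by set had a duration effect that differed between compounds, against 4. The cause was not tested. Without 1 rat, calls ran from 3 to 24 for short groups against control (without NGTX control rat 2 and GTX control rat 1), from 12 to 15 (14 with all rats) for long groups against control, from 32 to 36 (35) from short to long in the GTX and NGTX sets and from 2 to 8 (6) in the test set, from 4 to 16 (9) for a test compound against the others, from 1 to 4 (3) between classes, from 22 to 26 (24) for any difference, from 3 to 9 (4) for the interaction, and from 14 to 21 (21) in the added comparison. With the replicate number as a block, short groups against control had 15 calls, long groups 15, short to long 35 and 6 and the interaction 5; the block moved none of these counts by over 1.5 times.

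Leaving out a DEN short rat leaves 1, which is assumed to vary like the other groups. The number of rats, 2 or 3 a group, limits every comparison, and the 3 control rats of a set differed from each other in these genes. Fits of only the groups compared are not given for the tests over a whole set.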
